A study of Rattus norvegicus with 12 samples.

Results

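The erythroid cells of the 2 immune-enriched liver libraries were cells whose UMIs (unique molecular identifiers, which count captured mRNA molecules) came, in most but not all of them, largely from hemoglobin genes. Of the barcodes with at least 1000 UMIs and at most 50% of UMIs in mitochondrial genes, erythroid cells were selected on measured hemoglobin-related UMIs: a barcode was taken when Hba-a2, Hba-a3, Hbb, Alas2 and Bpgm together made up at least 5% of its UMIs and at least 1 UMI was of Alas2 or Bpgm. The rule found 107 of 1163 kept cells in the Dark Agouti (DA) library and 208 of 2677 in the Lewis (LEW) library, 315 of 3840 in all. The kept cells under 5%, 1049 in DA and 2442 in LEW, served as comparison cells.

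Each library came from the liver of 1 healthy male rat of its strain. The animals were co-housed and fed a standard diet, and carried no treatment or transgene. The series text gives an age of 8 to 10 weeks for the 4 whole livers profiled alongside. The study itself gives an older age, both for those livers and for its rats in general. The labels of these 2 animals give no age. Digested liver was spun at low speed to take out parenchymal cells, washed further, depleted of red blood cells and run on 10x Genomics 3′ chemistry, version 3, with a target of 9000 cells, so the erythroid cells described here are those that remained after depletion. With 1 library per strain and cells that are not replicates, no difference between strains or cell groups was tested. Intervals of shares of cells, CPM and CPM ratios are 95% exact binomial or Poisson intervals and cover counting error only. Intervals of medians are 95% intervals from the ranks of the cells. They take cells as the units and hold no spread between animals.

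Red cells arise from progenitors that stop dividing, fill with hemoglobin, condense and expel the nucleus, and leave the marrow as reticulocytes. Reticulocytes keep a residue of mRNA, ribosomes and mitochondria, which they destroy through ubiquitin-dependent and autophagic pathways as they become erythrocytes. Hemoglobin needs matched alpha and beta globin chains and heme, whose synthesis begins with Alas2, the erythroid 5-aminolevulinate synthase, and ends with Fech, ferrochelatase, which inserts iron. Bpgm makes 2,3-bisphosphoglycerate, the metabolite that lowers the oxygen affinity of hemoglobin.

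The DA matrix had 4690 barcodes with 48255870 UMIs, of which 532 fell under 1000 UMIs and 2995 exceeded the mitochondrial limit. The LEW matrix had 6815 barcodes with 60005133 UMIs, of which 1736 and 2402 failed on the same grounds. No kept cell had identical counts in both libraries, and barcode sequences were not used here.

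The 2 libraries yielded unequal numbers of erythroid cells. Erythroid cells were 9.20% of kept cells in DA (interval 7.60 to 11.0%) and 7.77% in LEW (6.78 to 8.85%), so the intervals overlapped, while the LEW library held more kept cells. The order of the shares turned when 300 UMIs outside hemoglobin and mitochondria were required, which left 54 of 1163 kept cells in DA and 198 of 2677 in LEW. It also turned with no mitochondrial limit, where 109 erythroid cells stood beside 4041 comparison cells in DA and 209 beside 4843 in LEW. How much each suspension lost in red cell depletion is not known, and strain, animal and preparation cannot be told apart here.

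Most of these cells stood far from the limits that chose them. The rule genes made up a median of 44.6% of a DA erythroid cell's UMIs (range 5.61 to 52.7%) and 49.8% of a LEW erythroid cell's (6.11 to 58.0%). Just inside the limit lay cells at 5.61, 6.15 and 8.61% in DA and at 6.11, 6.76 and 6.78% in LEW. Just outside it lay cells at 3.24, 0.167 and 0.105% in DA and at 4.12, 3.06 and 2.36% in LEW. A further 7 DA and 27 LEW cells passed 5% but had no UMI of Alas2 or Bpgm, with a median of 2049 and 2138 UMIs, and were left out of both groups. Among the erythroid cells, 8 in DA and 17 in LEW qualified on a single Alas2 or Bpgm UMI, against medians of 11 and 9 such UMIs.

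**Figure D1:**
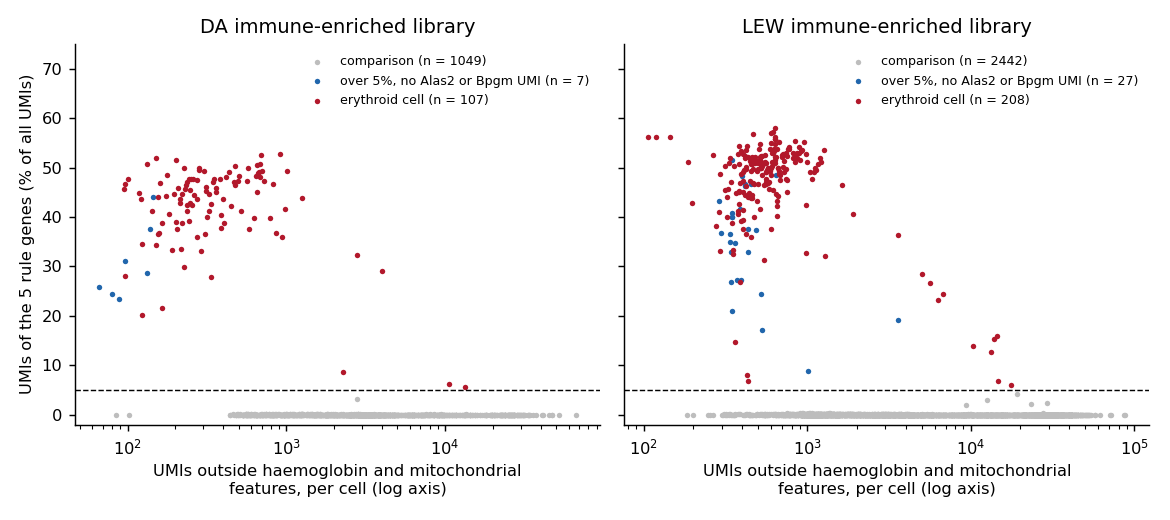
Share of each kept cell's UMIs in the 5 rule genes (vertical axis, percent) against its UMIs outside hemoglobin and mitochondrial features (horizontal log axis), 1 point per cell, in the DA (left) and LEW (right) immune-enriched libraries. Most erythroid cells (red) lie between 20 and 60% with under 2000 UMIs outside hemoglobin, and a tail of 5 DA and 11 LEW cells runs down to the dashed 5% line at higher UMI numbers; blue points are cells over 5% without an Alas2 or Bpgm UMI, and gray points are comparison cells.

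In most of these cells, little of the mRNA was anything but globin. Counting all hemoglobin features, the median share was 87.9% of UMIs in DA erythroid cells (range 12.7 to 94.96%) and 88.9% in LEW (range 10.1 to 93.9%). The comparison cells stayed at or under 0.0714% in DA and 0.105% in LEW up to their 95th percentile. Erythroid cells held 97.9% of the hemoglobin UMIs of all kept DA cells and 94.8% of those of LEW cells. An erythroid cell had a median of 6200 UMIs in DA and 6566 in LEW. Outside hemoglobin and mitochondria it had only 301 (range 95 to 13276) and 553.5 (range 106 to 17557), against 3088 and 4419 in comparison cells. A comparison cell therefore had more chances to show any given gene, which bears on every share of cells with a UMI given here.

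The hemoglobin was of the adult type. The most abundant beta-type feature was LOC689064, which RefSeq names Hbb-bs and which the rule did not use. It made up a median of 42.3% of a DA erythroid cell's UMIs and 38.3% of a LEW one's and was seen in 100% of both. Hba-a2, the alpha chain, stood on 2 rows of the matrices with medians of 31.5 and 10.4% in DA and 35.3 and 11.8% in LEW. Hbb followed at 1.16% in DA and 1.57% in LEW, and Hba-a3 at 0.645 and 0.293%. LOC100134871, named Hbbl1 by RefSeq, held only 81 UMIs in DA and 181 in LEW.

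Embryonic-type globins were at or near 0. Hbz, Hbe2 and Hbg1 had 0 UMIs in the erythroid cells of both libraries, which allows a share of cells with a UMI of up to 2.80% in DA and 1.44% in LEW. Hbe1 had 6 UMIs in 5 DA cells and 2 UMIs in 2 LEW cells, and Hbq1a had 0 and 5 UMIs. In all, 6 of the 10 embryonic and other globin names looked for were among the gene names, and as hemoglobin features they were left out of the fold comparison.

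Alpha and beta globin UMIs were near equal per cell at the median in DA, while alpha exceeded beta in most LEW cells. The ratio of alpha to beta UMIs over all erythroid cells was 0.987 in DA and 1.21 in LEW. Per cell, the median ratio was 1.00 in DA (quartiles 0.880 to 1.095) and 1.18 in LEW (1.08 to 1.31), and alpha exceeded beta in 54 of 107 DA and 176 of 208 LEW cells. The globin copies are nearly identical in sequence and the strains may differ in them, so the split between copies, and with it the ratio, depends on how reads were assigned.

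For the genes outside hemoglobin, UMIs were summed over the erythroid cells and over the comparison cells of each library and scaled to CPM, counts per 1e6 UMIs outside hemoglobin and mitochondrial features. A fold is the ratio of these levels after adding 10 CPM to each. A gene was called higher at 4-fold or more in both libraries, and lower at 0.25-fold or less in both. Of 11249 genes with at least 10 UMIs in the kept cells of each library, 96 were higher in erythroid cells (0.853%) and 72 lower (0.64%). Higher genes were thus 57.1% of the calls. Scaled instead to all UMIs, hemoglobin included, 19 were higher and 880 lower, or 2.11% higher, with the median gene at a log2 fold of -1.09 in DA and -0.64 in LEW, so every direction given here is relative to the non-hemoglobin mRNA.

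The depth was small on the erythroid side. One UMI was worth 14.1 CPM in DA and 4.42 CPM in LEW, and 5479 tested genes in DA and 2366 in LEW had 0 UMIs in erythroid cells. The median fold of all tested genes was 0.633 in DA and 0.922 in LEW, and it rose to 1.51 and 1.17 when a count of 0 was taken as 3 counts with nothing added. Of the 96 higher genes, 84 had at least 10 UMIs in the erythroid cells of each library. Of the 72 lower genes, 35 had 0 UMIs in DA erythroid cells and 11 had 0 in both, so a lower call often rested on absent counts. With 10 CPM added, a gene at a low level in comparison cells could not be called lower even at 0 UMIs. The number of lower genes, and the share of calls that were higher, depend on this.

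A few large cells carried much of this mRNA. Erythroid cells with more than 2000 UMIs outside hemoglobin and mitochondria numbered 5 in DA (2291 to 13276 UMIs, the next at 1251) and 11 in LEW (3605 to 17557, the next at 1908). They held 46.7% of the non-hemoglobin UMIs of all DA erythroid cells and 49.2% of those of LEW. In DA, 1 of them held 1762 UMIs of Ighm, the heavy chain of IgM, 1 held 365 UMIs of Cd74, the class II invariant chain, and 2 had more than 30 UMIs of endothelial genes. In LEW, 8 had over 100 UMIs of Kupffer cell genes, up to 1255, and 3 had more than 30 endothelial UMIs. Scrublet called 1 of the 5 and 2 of the 11 doublets, out of 4 doublets among all kept DA cells (0.344%) and 18 among all kept LEW cells (0.672%). Whether the other large cells were droplets with more than 1 cell was not tested. Without the large cells 129 genes were higher, 93 of them among the 96, and 307 were lower, 24 of them among the 72. Folds below include these cells unless stated otherwise, and calls that changed without them are given for many of the genes or lists.

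The label was checked on genes that the rule did not use. Of 10 further erythroid markers, 9 were among the gene names, 6 were higher (Slc4a1, Ahsp, Klf1, Epb42, Fech and Slc25a37), Tfrc was neither, and Gata1 and Hemgn had too few UMIs to be tested. A marker could reach the 10 UMIs through the erythroid cells alone, so this count is a description only, as are the counts of higher genes per list below. Among all tested genes, 0.853% were higher by the same rule, which is the share to set beside each of these counts.

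The 20 genes with the largest folds were taken among genes seen in at least 10% of erythroid cells of both libraries. An unnamed feature led them, followed by the rule gene Alas2, then Lgals5 and the rule gene Bpgm. LOC103694857, which the gene tables used here do not describe, had 30429 CPM in DA and 21118 CPM in LEW erythroid cells against 0.941 and 1.30 CPM in comparison cells. Whether it and LOC103694855, another undescribed feature seen in 13.1 and 15.9% of erythroid cells, are copies of a globin gene was not tested, and with both left out 97 genes were higher and 64 lower. Alas2 had 11897 CPM (11106 to 12729) in DA and 6356 CPM (6032 to 6693) in LEW, against 0 UMIs in DA comparison cells, at least 25297-fold higher, and 0.362 CPM in LEW ones. Bpgm had 9124 CPM in DA and 3996 CPM in LEW against 21.5 and 12.4 CPM. Both helped to choose the cells, so their levels only describe the choice.

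Lgals5, a galectin that rat reticulocytes carry on their surface, led the genes outside the rule that have a name. Its 798 UMIs in DA were seen in 96.3% of erythroid cells and stood against 3 UMIs in all DA comparison cells, a CPM ratio of 24004 (8184 to 116642). In LEW it had 2758 CPM against 0.689 CPM and was seen in 78.8% of erythroid cells and 0.614% of comparison cells. Ybx3, a cold shock protein that binds mRNA, was seen in 93.5% of DA and 97.1% of LEW erythroid cells at 13736 and 7881 CPM, a fold of 134 and 117. Ybx3 was not silent elsewhere, with a UMI in 31.7 and 37.3% of the deeper comparison cells.

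**Figure D2:**
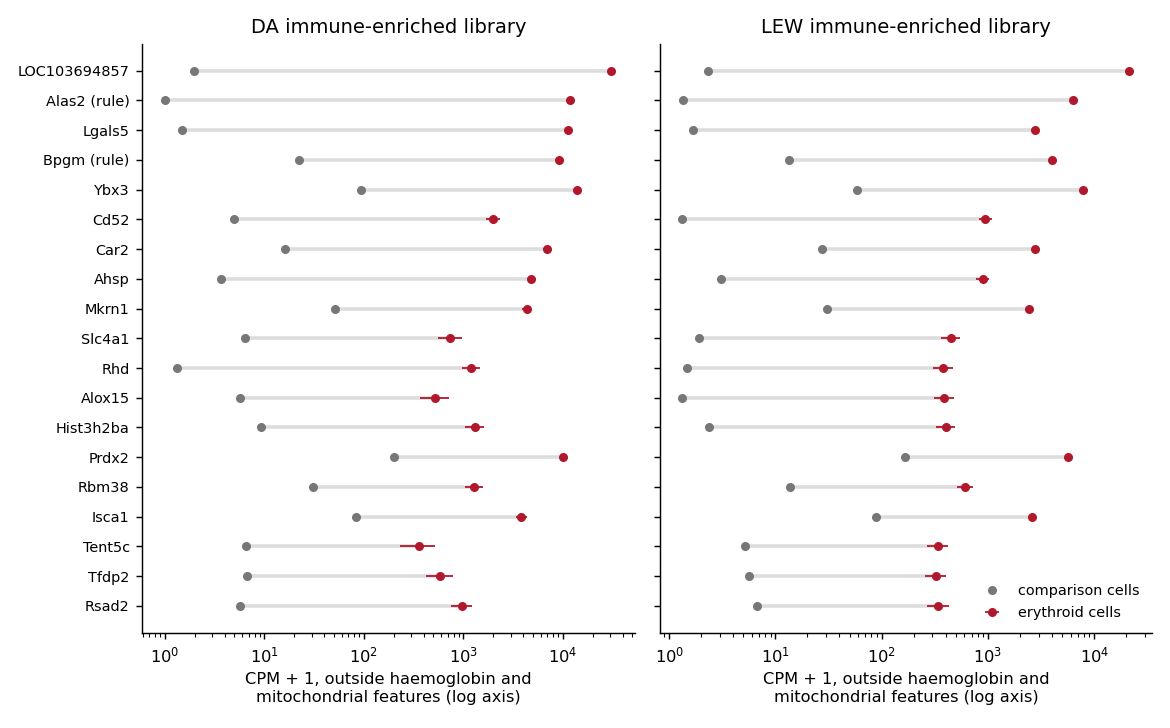
Level of genes among the 20 of largest fold (CPM + 1 of UMIs outside hemoglobin and mitochondria, log axis) in erythroid cells (red, with exact Poisson intervals) and comparison cells (gray) of the DA (left) and LEW (right) library. Every red point lies to the right of its gray point, from LOC103694857 at 30429 and 21118 CPM down to Rsad2 at 962 and 340 CPM; Alas2 and Bpgm were part of the rule.

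The other genes among the 20 covered several functions of red cells. Car2, a carbonic anhydrase abundant in erythrocytes, rose 279-fold in DA and 76.4-fold in LEW, and 502-fold and 140-fold without the large cells. Ahsp, the chaperone of free alpha globin, had 4824 CPM in DA (4325 to 5364) and 888 CPM in LEW (770 to 1020). It was seen in 77.6% of DA and 30.3% of LEW erythroid cells and in 0.667 and 0.491% of comparison cells. LEW erythroid cells were the deeper ones outside hemoglobin. The difference between libraries was not tested, and strain, animal and preparation cannot be told apart.

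Alox15, the lipoxygenase that attacks mitochondrial membranes in maturing reticulocytes, rose 36.3-fold in DA and 38.2-fold in LEW from only 12 DA and 26 LEW cells. Rbm38, an RNA-binding protein, rose 32.6-fold and 27.1-fold, and Isca1, which serves iron-sulfur cluster assembly, rose 41.4-fold and 26.8-fold.

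Further folds among the 20 ran from 22.3 to 144. They belonged to Cd52, Mkrn1, Slc4a1, Rhd, Hist3h2ba, Prdx2, Tent5c, Tfdp2 and Rsad2, apart from Rhd in DA, whose 85 UMIs stood against 2 in comparison cells (CPM ratio 3835, 1030 to 32181). All 20 were also higher without the large cells and against those comparison cells that had a UMI of Ptprc, and 19 of 20 were higher when scaled to all UMIs.

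The 15 genes of highest mean level outside hemoglobin and ribosomal protein genes included some seen in nearly every erythroid cell. Tpt1, a translationally controlled protein, had 37063 CPM in DA and 19788 CPM in LEW and was called neither (fold 4.48 and 3.93), but was higher without the large cells (7.26 and 6.004). Ubb, which encodes polyubiquitin, had 29170 and 21384 CPM and was seen in 100 and 99.0% of erythroid cells. The ferritin chains Fth1 and Ftl1 had 23073 and 12449 CPM in DA and 16805 and 9817 CPM in LEW, with folds between 2.41 and 3.46, and B2m had 11713 and 10268 CPM.

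Other entries among the 15 most abundant genes came from few cells or were shared with the whole library. AABR07060872.1, an unnamed feature, had 7584 UMIs in DA, 7569 of them in the 1 cell rich in Ighm, and 1 UMI in LEW. Tmsb4x was seen in 26.2% of DA and 39.4% of LEW erythroid cells against 95.2 and 93.2% of comparison cells, and was lower in both libraries once the large cells were left out. Alb, the hepatocyte product albumin, was seen in 91.6% of DA and 100% of LEW erythroid cells and in 92.0 and 100% of comparison cells. AABR07000398.1, another unnamed feature, was higher, 7.19-fold in DA and 6.74-fold in LEW.

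Of 8 heme synthesis enzymes tested, the first, Alas2, helped to choose the cells. Of the other 7, only Fech, the last, was higher and none was lower, with a median fold of 1.93 in DA and 1.13 in LEW. Fech had 113 UMIs in DA and 170 in LEW, 29.8-fold and 13.1-fold above comparison cells, and was seen in 42.1 and 42.8% of erythroid cells. The intermediate enzyme Urod had folds of 9.43 in DA and 3.78 in LEW and was higher without the large cells. Alad, the second enzyme, had 5 UMIs in DA and a fold of 0.885 and 0.775.

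Of 10 genes of iron uptake and handling tested, Glrx5, a glutaredoxin of iron-sulfur cluster assembly, and Slc25a37, the mitochondrial iron importer mitoferrin 1, were higher and none was lower. The median fold was 0.615 in DA (2.96 with counts of 0 at their bound) and 1.21 in LEW. Glrx5 rose 20.7-fold in DA and 8.17-fold in LEW and was seen in 70.1 and 68.8% of erythroid cells, whereas Slc25a37 rested on 5 and 14 UMIs. Tfrc, the transferrin receptor that erythroblasts display, had 1 UMI in DA and 6 in LEW erythroid cells and was seen in 0.935 and 2.40% of them, against 11.9 and 18.4% of the deeper comparison cells. Scaled for depth its folds were 0.422 in DA and 1.00 in LEW. Slc40a1, the iron exporter ferroportin, was lower in both libraries without the large cells.

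Single higher genes outside the lists were picked after their values were seen and stand for no group. Slc25a39, a mitochondrial glutathione carrier, had 3438 CPM in DA and 2206 CPM in LEW, a fold of 14.99 and 9.18. Ncoa4, the receptor that takes ferritin into autophagosomes, had folds of 11.1 and 11.2, and Hscb, a cochaperone of iron-sulfur cluster transfer, 8.45 and 9.02. Atp5if1, the inhibitor of the mitochondrial ATP synthase, had folds of 7.07 and 8.76.

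Of 18 genes of the red cell membrane and its skeleton, 17 were among the gene names and 10 were tested. Of these, 5 were higher and none lower: the anion exchanger Slc4a1, the Rh protein Rhd, and the skeletal proteins Epb41, Epb42 and Add2. Among all tested genes, 0.853% were higher. Add2, Epb42 and, in DA, Rhd did not reach 10 UMIs in comparison cells and were tested only because erythroid cells held them. The median fold was 4.399 in DA (9.67 at the bound) and 4.02 in LEW. Slc4a1, also known as band 3, had 736 CPM in DA and 446 CPM in LEW and was seen in 23 of 107 and 52 of 208 erythroid cells against 2.48 and 0.942% of comparison cells. Add2 had 13 UMIs in DA (97.9 to 314 CPM) and 24 in LEW (68.0 to 158 CPM) against 0 in the comparison cells of both libraries. Against a floor of 3 counts over the comparison cells of a library, its level was at least 391-fold and 976-fold higher, without the counting error of its own UMIs. The water channel Aqp1 had folds of 2.35 and 3.25.

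Among 12 genes listed as regulators, with the globin chaperone Ahsp counted among them, 8 were tested. Klf1, Nfe2 and Ahsp were higher while none was lower. Without the large cells Lmo2, a partner of Gata1 and Tal1, had 0 UMIs in both libraries and was lower (0.0850 and 0.225). The median fold was 1.24 in DA (4.58 at the bound) and 1.82 in LEW (3.59). Klf1, an erythroid transcription factor that activates adult beta globin, had 19 UMIs in DA and 38 in LEW, a fold of 17.2 in LEW, and was seen in 16 DA and 28 LEW erythroid cells. With 1 UMI in DA comparison cells, Klf1 was tested only because erythroid cells held it. Gata1, the master erythroid factor, had 2 UMIs in DA and 3 in LEW erythroid cells and 0 in comparison cells. Epor, the erythropoietin receptor, had 0 in both.

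Progenitor genes and genes of dividing cells had few UMIs in erythroid cells. Of the 6 early progenitor genes tested, only Car1, a carbonic anhydrase, was higher, with 11 UMIs in each library, and the median fold was 0.992 in DA (6.02 at the bound) and 1.18 in LEW (2.40). Kit, the stem cell factor receptor, had 2 UMIs in DA and 3 in LEW, Gata2 had 0 and 1, and Myb had 0 in both. Of 14 cell cycle genes tested, 1 was higher and none lower, with 9 at 0 UMIs in DA, and a median fold of 0.537 in DA (2.98 at the bound) and 0.960 in LEW (1.24). Most genes of both lists were too low in comparison cells to be called lower even at 0 UMIs. Mki67, with 0 UMIs in DA erythroid cells against 22.4 CPM in comparison cells, had a fold of 0.308 there.

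The proliferation markers Mki67 and Top2a each had 0 UMIs in DA and 1 UMI in LEW erythroid cells, and Cdk1 and Ccnb1 had 0 in both. By the limit of 3 counts that a count of 0 allows, a share of cells with a UMI of Cdk1 or Ccnb1 of up to 2.80% in DA and 1.44% in LEW remained possible for each gene at this depth. Comparison cells showed Mki67 in 3.34% of cells in DA and 2.91% in LEW. The exception was Ube2c, a ubiquitin-conjugating enzyme that works with the anaphase-promoting complex, which rose 10.7-fold in DA and 13.5-fold in LEW and was seen in 11.2 and 14.4% of erythroid cells. Outside the list, and picked after their values were seen, Tk1, thymidine kinase, had 12 UMIs in DA and 17 in LEW, a fold of 8.57 and 4.48, and Cdc25b, a phosphatase that activates cyclin-dependent kinases, had 26 and 38 UMIs. Without the large cells, Stmn1 and Hmgb2 were lower.

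**Figure D3:**
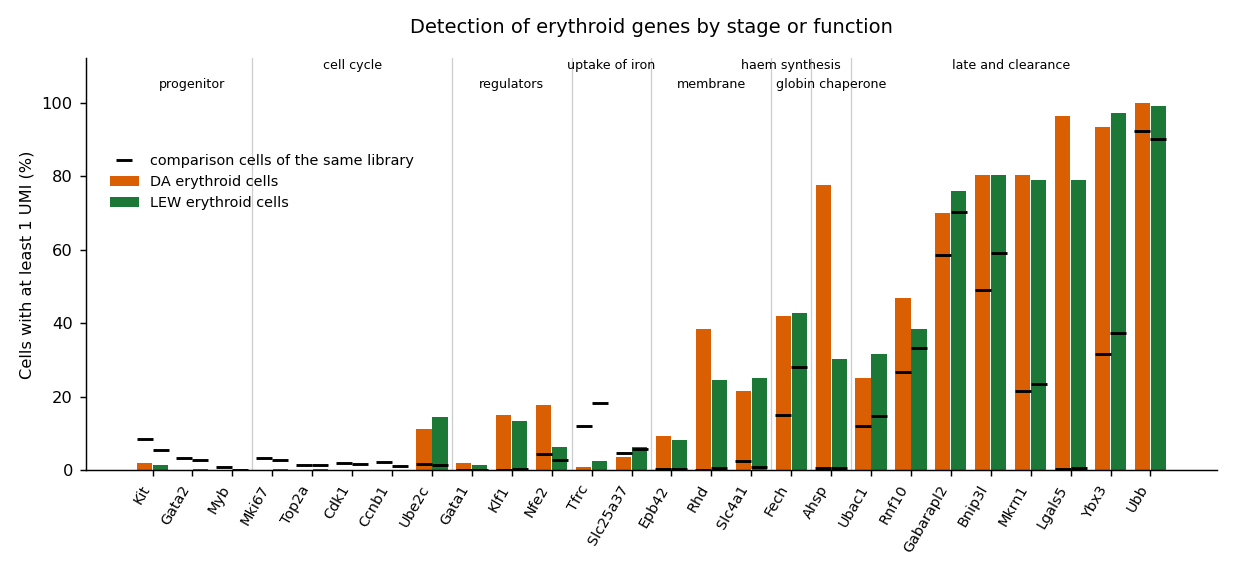
Percent of erythroid cells with at least 1 UMI of each gene in DA (orange) and LEW (green), ordered by stage or function; black dashes give the comparison cells of the same library, which were deeper outside hemoglobin (median 3088 and 4419 UMIs against 301 and 553.5). The plotted progenitor and cell cycle genes other than Ube2c stay below their dashes, and the late genes at the right reach 70 to 100% from Gabarapl2 on.

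Genes of late maturation and of organelle and protein clearance ranged widely in detection. Of 15 such genes tested, 7 were higher (Bnip3l, Gabarapl2, Ubb, Mkrn1, Ube2o, Rnf10 and Ubac1) and none was lower, with a median fold of 4.31 in DA and 2.36 in LEW. Bnip3l, the mitophagy receptor also called Nix, was seen in 80.4% of DA and 80.3% of LEW erythroid cells and rose 20.7-fold and 14.3-fold. Gabarapl2, which coats autophagosomes, rose 18.0-fold and 7.88-fold. Mkrn1, a ubiquitin ligase, rose 72.3-fold and 62.1-fold, and Ube2o, the enzyme that tags ribosomes and unused globin in reticulocytes, had 15 UMIs in DA and 9 in LEW, a fold of 20.6 and 4.69.

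Of 13 genes listed as antioxidant or glycolytic and tested, with the carbonic anhydrase Car2 counted among them, Bpgm helped to choose the cells. Of the other 12, Prdx2 and Car2 were higher and none was lower, with a median fold of 0.690 in DA (0.864 at the bound) and 1.61 in LEW. Pgam1, a phosphoglycerate mutase of glycolysis, was lower without the large cells (0.0430 and 0.248). Prdx2, the chief peroxiredoxin of red cells, had 10030 CPM in DA and 5649 CPM in LEW, a fold of 47.3 and 32.6. Gpx1, glutathione peroxidase, had folds of 4.92 and 2.39, and Cat, catalase, which hepatocytes also make, 0.471 and 0.443.

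Of 10 other late genes tested, 6 were higher (Ybx3, Lgals5, Pim1, Isg20 and Tent5c among them), none was lower, and Bcl2l1, which keeps late erythroblasts alive, joined them without the large cells. The median fold was 14.7 in DA (22.2 at the bound) and 11.1 in LEW (11.2). Some of the 6, Lgals5 and Pim1 among them, did not reach 10 UMIs in DA comparison cells (3 and 8 UMIs) and could enter the comparison through the erythroid cells. Alas2, Bpgm, Ubb, Ybx3, Lgals5, Prdx2 and Mkrn1 were among the markers by which the study annotated its own erythroid cluster in these libraries, so their counts are not independent evidence of the direction. The 4 nuclear-retained RNAs looked for were not among the gene names, and the presence of a nucleus was not analyzed here.

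Fewer genes were seen per erythroid cell than per comparison cell. Thinned to 1000 UMIs, a DA erythroid cell showed a median of 54 genes (50 to 56) and a LEW one 79 (76 to 84), against 454 and 445 in comparison cells. Without thinning the medians were 146 and 285, against 1291 and 1672. Both follow in part from the rule, since hemoglobin fills most UMIs of the chosen cells. Among UMIs outside hemoglobin and mitochondria, thinned to 300, erythroid cells showed 139 genes in DA (54 cells, 53 too shallow) and 174 in LEW (198 cells, 10 too shallow), against 220 and 204 in comparison cells.

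The mitochondrial share outside hemoglobin lay above that of comparison cells in DA and below it in LEW, but with no mitochondrial limit it lay below in both. Of the UMIs outside hemoglobin, a median of 37.4% was mitochondrial in DA erythroid cells (31.3 to 49.9%) and 9.54% in LEW (8.33 to 11.1%), while comparison cells stood at 19.1 and 16.9%. Over all UMIs the erythroid medians were 4.69 and 1.16%, a scale on which the hemoglobin that chose the cells lowers every other share. Mt-co3, a subunit of cytochrome oxidase, had the largest ratio in DA, at 1.84 times its comparison share, against 0.753 times in LEW.

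The 50% mitochondrial limit was taken over all UMIs and so bounded the comparison cells but not the erythroid cells outside hemoglobin. With the limit set over UMIs outside hemoglobin for both groups, 65 DA erythroid cells remained, at a median of 24.5% against 19.1% in comparison cells, and LEW stood at 9.48% against 16.9%, so each direction stayed. With no limit the comparison cells rose to 83.1% in DA and 49.5% in LEW, and erythroid cells were then below them in both libraries, at 40.1 and 9.56%. Against comparison cells with a UMI of Ptprc, which had 13.7 and 9.61%, DA erythroid cells were higher and LEW ones nearly level.

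Within each library, leaving out the large cells, the mitochondrial share of UMIs outside hemoglobin was lower in cells with a higher hemoglobin share, with a Spearman rho across cells of -0.77 in DA (n = 102) and -0.49 in LEW (n = 197). Both shares come from the same cell's UMIs, and part of this relation follows from that. The same share had a rho of 0.02 in DA and -0.18 in LEW with the Alas2 share, and of 0.14 and -0.14 with the Ubb share. With the share of Alb, the hepatocyte product, it had a rho of 0.35 in DA and 0.03 in LEW.

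Ribosomal protein transcripts made up a median of 7.98% of UMIs outside hemoglobin and mitochondria in DA erythroid cells and 6.65% in LEW, against 12.2 and 6.25% in comparison cells. Of the 87 ribosomal protein genes tested, 0 were called in either direction by the fold rule, which is no test.

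**Figure D4:**
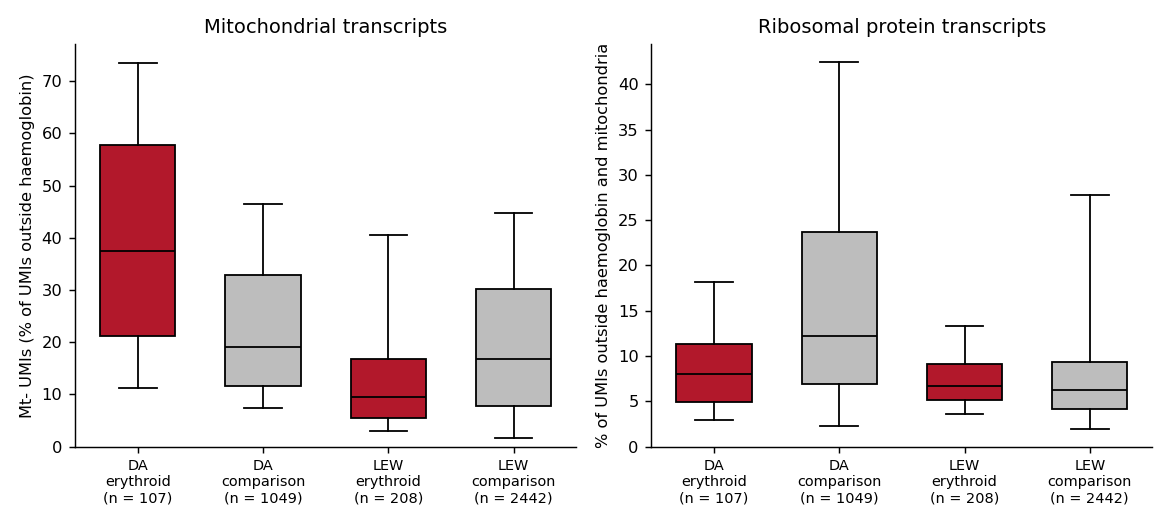
Per-cell share of mitochondrial UMIs outside hemoglobin (left) and of ribosomal protein UMIs outside hemoglobin and mitochondria (right), in percent, for erythroid (red) and comparison cells (gray) of each library. Boxes span the quartiles with the median as a line and whiskers reach the 5th and 95th percentiles; DA erythroid cells lie highest on the left (median 37.4%) and LEW erythroid cells lowest (9.54%).

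Transcripts of other cell types differed by list. Of the 8 T and NK cell genes tested, 3 were lower and none higher, with a median fold of 0.184 in DA (0.205 at the bound) and 0.320 in LEW (0.635). Among all tested genes, 0.64% were lower, which is the share to set beside each count of lower genes here. Ccl5, a chemokine of cytotoxic lymphocytes, had 2 UMIs in DA and 3 in LEW erythroid cells, a fold of 0.00975 and 0.0521. The granule genes Gzma and Prf1 had 0 UMIs in DA erythroid cells.

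Of the 8 monocyte and neutrophil genes, Slpi, a protease inhibitor, was lower and none was higher (median fold 0.530 in DA and 1.03 in LEW). The lists of 8 endothelial, 9 Kupffer, 7 B and plasmacytoid dendritic, 8 mesenchymal and 2 megakaryocyte genes held no call in either direction. Their median folds were 0.966, 0.156, 0.378, 0.168 and 0.635 in DA and 1.48, 5.43, 0.665, 0.812 and 1.28 in LEW. With counts of 0 at their bound, the DA medians after the endothelial one were 0.1999, 1.47, 0.309 and 3.29. The LEW median of B and plasmacytoid dendritic genes was then 2.63, and the other medians stayed. Of these 7 genes, 5 had 0 UMIs in DA erythroid cells and all 7 in LEW. In LEW comparison cells, all of them but Ighm, and both megakaryocyte genes, were too low for a lower call even at 0 UMIs. The lack of a lower call therefore says nothing on these genes. Without the large cells, 3 endothelial, 4 Kupffer, 4 monocyte and neutrophil and 3 mesenchymal genes were lower, beside 2.73% of all tested genes.

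The libraries went opposite ways for genes that the large cells carried. AABR07060872.1 and Ighm were at least 4-fold higher in DA and lower in LEW, and 18 genes, among them Marco, Cd5l, Clec4f and C1qa of Kupffer cells, went the other way. Without the large cells there were 0 such genes in either direction. C1qa, a complement subunit, had 1448 UMIs in LEW erythroid cells with the large cells and 5 without them.

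Of 5 general leukocyte genes, Cd52 alone was higher and none was lower, with a median fold of 0.511 in DA and 3.30 in LEW. Cd52, a surface glycoprotein, was seen in 65.4% of DA and 54.8% of LEW erythroid cells against 0.858 and 0.246% of comparison cells. Ptprc, the leukocyte common antigen CD45, had 18 and 48 UMIs in erythroid cells, all in the large cells. Ptprc, Coro1a and Laptm5 were lower in both libraries without the large cells.

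Hepatocyte transcripts were present in nearly every erythroid cell. A UMI of the 8 hepatocyte genes was seen in 102 of 107 DA and 208 of 208 LEW erythroid cells. Their summed share of UMIs outside hemoglobin and mitochondria had a median of 1.33% in DA (range 0 to 11.0%) and 8.49% in LEW (range 0.310 to 17.8%). Comparison cells had 0.199 and 11.2%. None of the 8 was called, because LEW folds stayed above 0.25, while the median fold was 0.143 in DA and 0.383 in LEW. The direction in DA turned with the summary: the median share per cell lay above that of comparison cells, but the summed level was 8785 CPM against 57915 CPM, and all 8 genes had folds under 1. In LEW both summaries lay below, and the part of free hepatocyte RNA in these values was not tested.

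The 72 lower genes included Gzma, Prf1, Ccl5 and Slpi from the lists, and others made in hepatocytes, of which 3 are named here after their values were seen. Acsl1, which activates fatty acids, had folds of 0.0999 in DA and 0.248 in LEW, with 11 and 134 UMIs. Tat, tyrosine aminotransferase, and Hnf4a, a hepatocyte transcription factor, had folds of 0.123 and 0.190 in DA and 0.202 and 0.169 in LEW. Expressed relative to Ptprc-positive comparison cells, 62 genes were lower, and only 6 of them were among the 72, so the lower set depended on the cells compared.

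Promoters of the genes called higher were read for the letters of motifs bound by erythroid factors. The promoter is taken as the 250 bases before a gene's start in RefSeq on the GRCr8 assembly, which is not the build of the count files. Of the 96 higher genes, 65 matched an entry there, with 68 promoters. The GATA motif was searched as AGATAA or TGATAA and the CACCC-type motif, bound by Klf1 and related factors, as CCNCNCCC, each on both strands. The promoters of Alas2 (X:22895200-22895449, plus strand), Lgals5 (10:64355138-64355387, minus strand) and Rhd (5:152370950-152371199, plus strand) are shown as examples of promoters with a GATA match, which 5 of the 14 promoters found for the 20 genes of largest fold held, with motif matches in capitals and the gene's start at the right end.
Alas2: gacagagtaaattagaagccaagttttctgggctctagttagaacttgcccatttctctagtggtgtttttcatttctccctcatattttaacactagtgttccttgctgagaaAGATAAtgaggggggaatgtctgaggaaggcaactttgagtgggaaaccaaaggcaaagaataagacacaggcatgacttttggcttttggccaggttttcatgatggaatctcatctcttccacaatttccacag
Lgals5: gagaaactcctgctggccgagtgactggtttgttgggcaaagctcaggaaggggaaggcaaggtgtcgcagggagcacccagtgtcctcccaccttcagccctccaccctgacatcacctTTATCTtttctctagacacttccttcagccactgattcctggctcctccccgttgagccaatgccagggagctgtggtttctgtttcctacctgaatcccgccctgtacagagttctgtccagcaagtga
Rhd: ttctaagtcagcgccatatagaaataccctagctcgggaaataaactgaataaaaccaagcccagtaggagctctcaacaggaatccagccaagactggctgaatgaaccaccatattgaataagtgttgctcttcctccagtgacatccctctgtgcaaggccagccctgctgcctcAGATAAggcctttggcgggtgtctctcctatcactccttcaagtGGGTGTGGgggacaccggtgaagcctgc

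The GATA letters lay 130 bases before the start in Alas2, 124 in Lgals5, where they read as TTATCT on the printed strand, and 66 in Rhd, which also held a CACCC-type match. A GATA match was present in 16 of the 68 promoters of higher genes (23.5%), in 9.82% of 9311 promoters of tested genes and in 16.9% of all 33469 promoters. A CACCC-type match was present in 63.2, 61.8 and 42.8% of the same sets, and both together in 14.7, 4.20 and 4.28%. These matches describe letters and not binding.

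Outside the immune-enriched libraries few barcodes met the rule. The same rule found 8 and 7 cells in the 2 DA total liver homogenate (TLH) libraries, of 42272 and 50741 kept, and 7 and 9 in the 2 LEW ones, of 58880 and 49022, or 0.0119 to 0.0189% of kept barcodes. No nucleus met it among 2232 and 2593 kept DA nuclei and 5303 and 2506 kept LEW nuclei, which allows up to 0.134, 0.116, 0.0566 and 0.120% by the limit of 3 counts. With no Alas2 or Bpgm UMI required, 18 and 13 barcodes of the DA TLH libraries and 14 and 17 of the LEW ones passed 5%. So did 1 LEW nucleus, at 6.08%. TLH libraries were made with an earlier chemistry and hold 1157 to 1629 UMIs per kept cell at the median, so the values stand side by side without a comparison. The study's own filters kept far fewer TLH cells than were kept here. The TLH cells found had a median rule share of 10.3 to 21.4% per library, beside 44.6 and 49.8% in the immune-enriched libraries. Outside hemoglobin and mitochondria they had a median of 1150 to 1702 UMIs, beside 301 and 553.5.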

How the data were processed

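The authors aligned reads with Cell Ranger 3.1.0, per the submitters' processing notes, to a custom reference based on Rnor_6.0, per the study's methods, and deposited unnormalized UMI counts. The immune-enriched matrices were read with the gene names of a nuclei library with the same 32883 rows. Cells were kept at 1000 or more UMIs and at most 50% mitochondrial UMIs. Hemoglobin features were the Hba, Hbb, Hbe, Hbg, Hbz and Hbq symbols, except Hbegf, a growth factor, and LOC100134871 and LOC689064. Genes with at least 10 UMIs in each library entered the fold comparison. In simulated counts with 16-fold changes, it called 100 of 100 raised and 88 of 100 lowered genes, and 0 of 11012 unchanged ones. The changed genes were well expressed and the simulation held no large cells. It therefore says nothing on changes near 4-fold or on genes with few UMIs.

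The members and gene lists were chosen with earlier results of these data known. Named genes were those of the 20 lists, the 20 of largest fold in the library with the smaller fold among genes in at least 10% of erythroid cells, and the 15 of highest mean CPM outside ribosomal protein genes; others are said to be chosen after their values were seen. Doublets were called with Scrublet in scanpy 1.11.5 at an expected rate of 0.06 and kept. Cells were thinned with a fixed seed. Computations used Python 3.11.15, numpy 2.4.6, scipy 1.17.1 and pandas 2.3.3. Some genes of the lists and of the 20 are not reported here.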

Additional observations from a re-analysis of the deposited data

Results flagged for a closer look

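The libraries differed in direction in the mitochondrial share of UMIs outside hemoglobin. The median of erythroid cells minus that of comparison cells was 18.3 percentage points in DA and -7.33 in LEW. With no mitochondrial limit erythroid cells lay below in both. The difference between libraries was not tested.

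The summed level of Kupffer genes in erythroid over comparison cells was -2.66 on the log2 scale in DA and 2.47 in LEW. Most of the LEW sum came from the large cells, and without them the level was 226 CPM in erythroid cells against 4887 CPM in comparison cells, and 1804 CPM against 6297 CPM in DA, so both libraries then lay below.

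The summed level of B and plasmacytoid dendritic cell genes was 5.61 on the log2 scale in DA and -3.53 in LEW, where all 7 genes had 0 UMIs in erythroid cells, so the LEW value depends on the 10 CPM added. In DA 1763 of the 1771 UMIs were in 1 large cell, and without the large cells the level was 186 CPM against 502 CPM. Neither difference between libraries was tested.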

How the results depend on the processing

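Of 92 recomputed values, 65 stayed within the limits set for a change, 24 moved and 3 reversed. Requiring 300 UMIs outside hemoglobin and mitochondria left 54 DA erythroid cells. Higher and lower genes numbered 19 and 880 on the scale of all UMIs, 61 and 7 with 50 CPM added, 191 and 899 at a fold of 2, and 51 and 3 at a fold of 8, and 998 were lower with 1 CPM added. Leaving out either library gave 171 to 177 higher and 110 to 1055 lower genes. Lower genes numbered 307 without the large cells and 239 with each cell weighted equally. Unthinned, 146 genes in DA and 285 in LEW were detected per cell. The DA mitochondrial share reversed against comparison cells with no mitochondrial limit (40.1%) and over all UMIs (4.69%) and moved to 24.5% with the limit over UMIs outside hemoglobin, where fewer cells entered. The LEW share moved to 1.16% over all UMIs and to 12.1% with the AY172581 features added. Over all UMIs the ribosomal share moved to 0.420% in DA and reversed to 0.676% in LEW, by the larger denominator. Values over all UMIs follow from the rule, since hemoglobin chose the cells and fills that denominator, and bear on no direction. At a 10% rule share the DA TLH libraries held 5 and 4 cells. The other causes were not tested. The alternatives on large cells, equal weights, the unnamed LOC features, and the mitochondrial limit and denominator were chosen after seeing the data. No paired analysis was possible because erythroid cells were chosen by their own counts, so no test against the other cells was made; each fold was taken within its library, and each strain had 1. Depth outside hemoglobin limits every lower call and each gene at 0.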

Other observations

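Ctrb1, the pancreatic enzyme precursor chymotrypsinogen B, was picked after its values were seen. It had 63 UMIs in 48 of 208 LEW erythroid cells (23.1%), 60 of them outside the large cells, and 1 UMI in 2442 LEW comparison cells. In DA it had 0 UMIs in all kept cells.

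Slc4a1 and Rhd, which were each seen in under 40% of erythroid cells, kept 52 and 83 UMIs in DA and 100 and 82 in LEW without the large cells, so nearly all of their counts came from cells with few UMIs outside hemoglobin.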
